A study of Mus musculus with 9 samples.

Results

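Aminoacyl-tRNA synthetases are the enzymes that load each amino acid onto its transfer RNA, the step that lets the ribosome read the genetic code. Their genes were followed across 9 RNA sequencing libraries of C2C12 myotubes, the multinucleated muscle cells that this mouse myoblast line forms on differentiation. Members were found by gene symbol alone: 1 capital letter followed by ars, with an optional 1, 2 or 3, or the symbols Eprs, Eprs1, Farsa and Farsb. The rule found 38 genes among the 10716 of the deposited table. Of these, 17 have a symbol ending in 2 and encode the mitochondrial enzymes, and 21 encode the enzymes of the cytosol, 2 of which (Gars1 and Kars1) also serve mitochondria.

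There were 3 libraries from each of 3 treatments of 24 h: vehicle only, 50 µM dexamethasone, and the same dose of dexamethasone with 10 µM THSG. Dexamethasone activates the glucocorticoid receptor and is used to bring on wasting in cultured muscle cells, and THSG is an abbreviation that the labels do not spell out. No group received THSG alone, so its effect can be read only on top of dexamethasone. The titles give all samples as one line, which was followed, although the cell line field counts up from C2C12. The labels do not say whether the replicates were separate cultures, so p-values measure the spread between these libraries, which may be technical.

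Protein synthesis in muscle needs a charged tRNA for every amino acid, and dividing the work between compartments takes separate genes for most amino acids. Cytosolic enzymes load tRNAs for the general pool of proteins. Mitochondrial enzymes are made in the cytosol, imported, and load the tRNAs for the few respiratory chain subunits that mitochondria translate themselves. Several cytosolic synthetases are held together in the multisynthetase complex by the scaffold proteins encoded by Aimp1, Aimp2 and Eef1e1, and the others work outside it. Many cytosolic synthetase genes are known targets of ATF4, the transcription factor that raises amino acid supply genes when amino acids are short or the endoplasmic reticulum is stressed, and which binds the C/EBP-ATF response element together with partner factors.

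Because several members moved together, the promoters were searched for the core of that element, TGATGNAA, on both strands. The search window ran from 250 bases before to 50 bases after each RefSeq start site (build GRCm38.p6), and 28 of the 38 members had a sequence. Those without one included Cars1, Hars1, Hars2, Lars1, Nars1, Pars2, Rars1, Vars1 and Wars1. The core was present in 5 members (Aars1, Gars1, Iars1, Tars1 and Yars1), which is 17.9% of the 28, beside 4.51% of all 27025 genes with a promoter sequence and 3.97% of all 32851 promoters of this length. The window around a match in each of these genes is shown because it allows the site to be compared between genes. The windows are written 5′ to 3′ on the strand of the gene, with the match in capitals (TTGCATCA and TTTCATCA are the core read from the other strand).
Aars1, chr8:111033841-111033868, plus strand: gcgggtcactTTTCATCAgagcgctctg
Gars1, chr6:55037961-55037988, plus strand: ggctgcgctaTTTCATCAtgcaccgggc
Iars1, chr13:49682127-49682154, plus strand: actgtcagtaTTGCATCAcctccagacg
Tars1, chr15:11399656-11399683, minus strand: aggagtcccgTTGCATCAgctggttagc
Yars1, chr4:129189896-129189923, plus strand: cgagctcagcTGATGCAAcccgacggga

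The positions of the matches shown are counted from the start site. In Yars1 the match covered bases 4 to 11 after the start, in Iars1 bases 8 to 15, and in Tars1 it lay between 15 and 8 bases before the start (positions -15 to -8). In Gars1 it lay at positions -30 to -23, and in Aars1 the match shown covered bases 10 to 17 after the start. The 150 bases before the start are printed for Tars1 and Gars1, to show how the core sits in the proximal promoter.
Tars1, chr15:11399659-11399808, minus strand: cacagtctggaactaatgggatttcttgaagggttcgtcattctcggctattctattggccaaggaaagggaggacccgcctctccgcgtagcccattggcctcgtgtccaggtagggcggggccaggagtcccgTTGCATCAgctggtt
Gars1, chr6:55037851-55038000, plus strand: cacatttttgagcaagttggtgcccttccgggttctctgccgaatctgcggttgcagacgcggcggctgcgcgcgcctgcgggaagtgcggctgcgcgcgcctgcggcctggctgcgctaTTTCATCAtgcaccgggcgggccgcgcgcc
All 5 genes with the core were among the members that fell with dexamethasone, described next. Of 9 such members with a promoter sequence 5 held it, and of the other 19 members with a sequence 0 did. The core was present in 4.51% of all genes, so 0 of 19 is near that share. These 19 include the 14 mitochondrial members with a promoter sequence, of which 0 held the core. The members Cars1, Hars1, Lars1, Nars1 and Vars1, which also fell, had no sequence. Whether the core goes with the fall was not tested. A match describes the sequence and does not show that a factor binds there.

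The deposited values were fractional and were taken to be FPKM (fragment counts scaled by transcript length and library size), a unit that no source used here states. Each library summed to between 400218 and 422379 FPKM, and read depth is unknown. All values of the table lay above 1 FPKM, so every one of the 38 members was above that level in all 9 libraries. The share of FPKM from genes encoded in mitochondrial DNA was highest in dexamethasone replicate 3, at 14.0%, and lay between 10.5% and 12% elsewhere. All 8 myotube markers examined were in the table (Myh3, Myh8, Acta1, Ckm, Mymk, Tnnt3, Myog and Ttn), as were 3 of 5 fibroblast markers. The endothelial (Pecam1, Cdh5, Kdr) and macrophage markers (Ptprc, Cd68, Adgre1, Csf1r) were not found among its symbols. Fold changes below are differences of log2(FPKM + 0.1), and a gene is called when its Benjamini-Hochberg adjusted p from limma over all 10716 genes is under 0.05.

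With vehicle the cytosolic enzymes were expressed at higher levels per transcript length than the mitochondrial ones. The 21 cytosolic and dual genes had mean levels between 3.94 FPKM (Tars3) and 78.1 FPKM (Nars1), with a median of 34.0 FPKM. The 17 mitochondrial genes ranged from 1.72 FPKM (Mars2) to 21.3 FPKM (Lars2), with a median of 5.83 FPKM. The ranges overlapped, and Iars2 (19.7 ± 0.38 FPKM, SD, n = 3), the mitochondrial isoleucyl enzyme, stood above Tars3, another cytosolic threonyl enzyme. Nars1 and Gars1 (74.6 ± 2.2 FPKM), which load asparagine and glycine, and Sars1 (73.7 ± 2.9 FPKM), which loads serine, were at the top, and their vehicle libraries overlapped. As a sum over genes, the cytosolic and dual members reached 823 ± 19 FPKM with vehicle and the mitochondrial members 127 ± 6.8 FPKM.

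**Figure D1:**
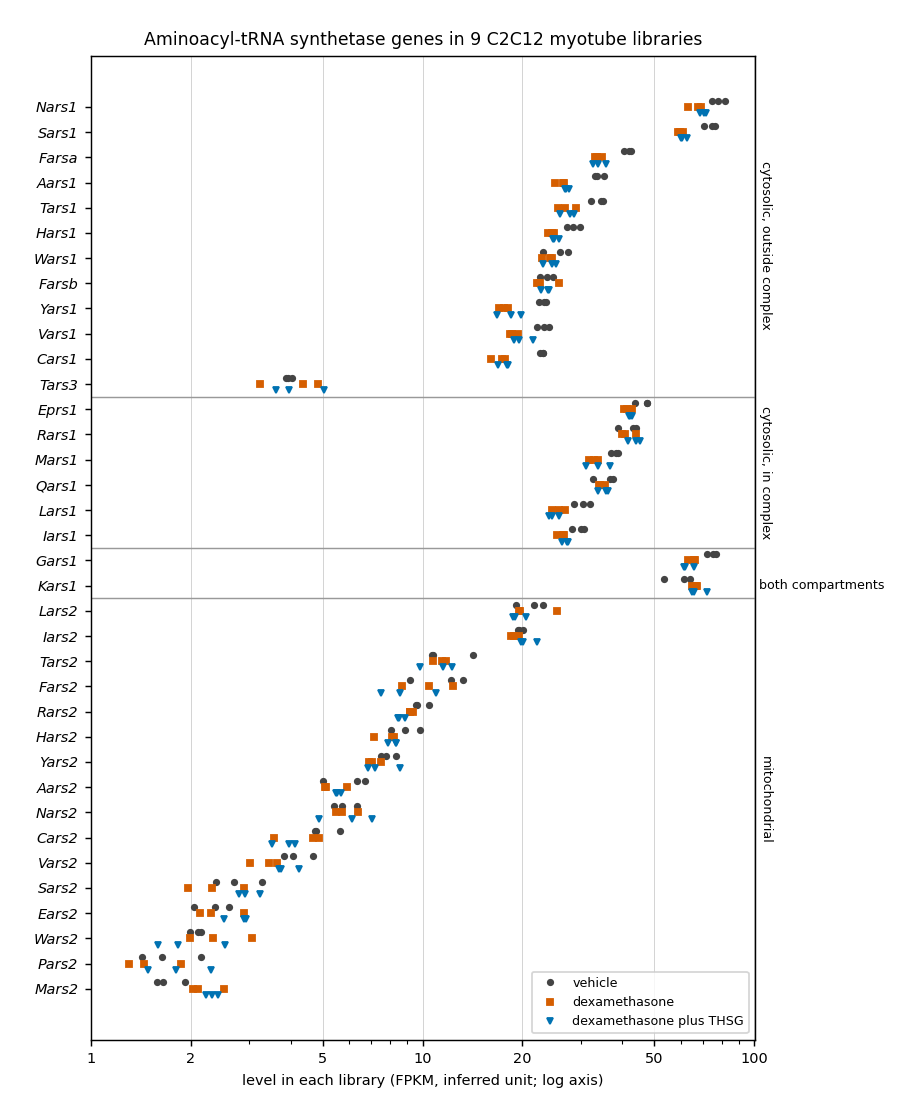
Level of the synthetase genes named in the text in each library (FPKM, log axis), with vehicle libraries as circles, dexamethasone as squares and dexamethasone plus THSG as triangles, ordered by class and vehicle mean (Kars1, also a complex member, is drawn with the genes of both compartments). Cytosolic genes other than Tars3 lie above 15 FPKM, most mitochondrial genes lie below, and for genes such as Aars1, Cars1 and Yars1 the vehicle libraries stand to the right of the other 6.

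The comparison of dexamethasone with vehicle asked how the glucocorticoid altered these genes. Dexamethasone lowered most cytosolic synthetase genes by a modest amount, and no mitochondrial one passed the test in either direction. Of the 38 members 14 were lower and 0 higher, where 20.9% of all genes were called lower and 12.7% higher. The 14 lower genes were all among the 21 cytosolic and dual members, and their levels were 9.93% (Eprs1) to 25.7% (Cars1) below vehicle, or 0.15 to 0.43 on the log2 scale. The median log2 fold change was -0.22 for the cytosolic and dual members, -0.13 for the mitochondrial members and -0.05 for all genes. Their summed level was 731 ± 11 FPKM with dexamethasone, which fell by 11.2%, while that of the mitochondrial members was 120.4 ± 2.5 FPKM, which fell by 5.47%. Fewer cells of a type and less RNA per cell cannot be told apart in these bulk libraries. Marker genes of the cell types a culture could hold moved with the same comparison. Of the 8 myotube markers 5 were higher with dexamethasone and 0 lower (log2 changes of 1.06 for Myh8, 0.74 for Ckm, 0.51 for Ttn, 0.29 for Tnnt3 and 0.26 for Mymk), while their summed level, mostly Acta1 (0.04, not called), was 5215 to 5669 FPKM with vehicle and 5593 to 6025 FPKM with dexamethasone. Of 5 markers of reserve cells or myoblasts 2 were higher (Myf5 1.05, Id3 0.81) and 2 lower (Cd34 -1.17, Pax7 -0.64), with sums of 80.7 to 85.4 and 82.6 to 89.4 FPKM. Of the 3 fibroblast markers present Col1a1 (-1.51) and Dcn (-1.27) were lower and the less abundant Pdgfra (1.31) was higher, with sums of 161 to 175 and 69.1 to 72.9 FPKM. The part of these markers in the result was not tested.

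**Figure D2:**
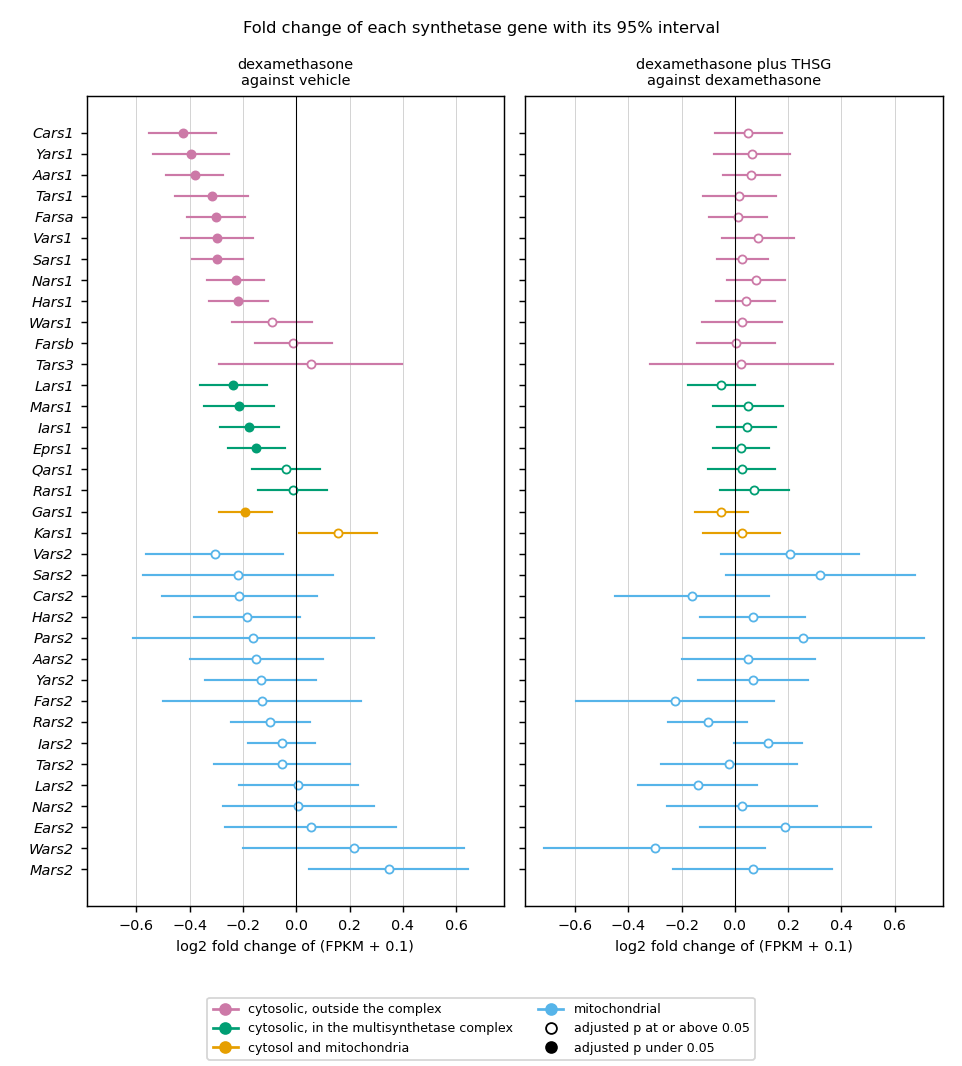
Log2 fold change of the synthetase genes named in the text, each with its 95% interval, for dexamethasone against vehicle (left) and dexamethasone plus THSG against dexamethasone (right); filled points have an adjusted p under 0.05 and colours give the class. On the left 14 cytosolic or dual genes are filled and lie below 0, and on the right no point is filled.

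The 3 largest falls, in Cars1, Yars1 and Aars1, were in enzymes that work outside the multisynthetase complex. Of the 12 genes of this class 9 were lower, with a class median of -0.30. Cars1, which loads cysteine, read 23.1, 23.1 and 22.6 FPKM with vehicle and 16.1, 17.3 and 17.8 FPKM with dexamethasone, which is -0.43 on the log2 scale with a standard error of 0.057 (adjusted p = 0.000132). Yars1, which loads tyrosine and holds the core right after its start site, read 22.5, 23.6 and 23.3 FPKM against 17.0, 17.6 and 18.1 FPKM, which is -0.40 on the log2 scale with a standard error of 0.065 (adjusted p = 0.000607). In both genes every dexamethasone library lay well below the lowest vehicle library. Groups without overlap, with dexamethasone lower, were found in 17 of the 38 members and in 27.9% of all genes.

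Aars1, the alanyl enzyme, read 35.4, 33.7 and 33.1 FPKM with vehicle and 26.6, 26.7 and 25.1 FPKM with dexamethasone, which is -0.38 on the log2 scale with a standard error of 0.049 (adjusted p = 9.49e-05). The threonyl gene Tars1 read 35.0, 34.5 and 32.2 FPKM against 25.6, 29.1 and 27.0 FPKM (log2 change -0.32, SE 0.062, adjusted p = 0.00206). Aars1 had the smallest p of all members, and the groups did not overlap in either gene. In the annotation Aars1 shares 1326 exon bases with Exosc6 on the same strand, and Exosc6 was not analysed here.

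Sars1, which charges serine and also the selenocysteine tRNA, read 74.5, 76.1 and 70.5 FPKM with vehicle and 59.8, 61.1 and 59.0 FPKM with dexamethasone (log2 fold change -0.30, adjusted p = 0.000272). Vars1, the valyl enzyme, read 24.0, 23.2 and 22.1 FPKM against 19.4, 18.4 and 18.7 FPKM (log2 change -0.30, adjusted p = 0.00308). Nars1, the asparaginyl enzyme, read 74.8, 82.0 and 77.6 FPKM against 63.2, 69.1 and 67.8 FPKM (log2 change -0.23, adjusted p = 0.00386). Each of these 3 genes was lower in every dexamethasone library than in any vehicle library. Hars1, which loads histidine, did the same on a smaller scale, at 28.5, 29.8 and 27.3 FPKM and 24.9, 24.6 and 24.0 FPKM (log2 change -0.22, adjusted p = 0.00606). Hars1 shares 195 exon bases with the mitochondrial Hars2 on the opposite strand, and the strand setting of the counting is not stated.

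The phenylalanyl enzyme is built from 2 kinds of subunit, and only its alpha subunit gene was called. Farsa read 42.1, 40.4 and 42.7 FPKM with vehicle and 33.7, 34.7 and 33.0 FPKM with dexamethasone (log2 fold change -0.30, SE 0.049, adjusted p = 0.000575). Farsb, the beta subunit gene, read 23.7, 24.8 and 22.6 FPKM against 22.6, 22.2 and 25.8 FPKM (log2 change -0.01, 95% interval from -0.16 to 0.13). The ratio of Farsa to Farsb was 1.77 ± 0.13 with vehicle, 1.45 ± 0.15 with dexamethasone and 1.45 ± 0.11 with dexamethasone plus THSG. The 3 dexamethasone ratios lay below the 3 vehicle ratios, with an exact two-sided permutation p = 0.1, the smallest that 3 libraries against 3 allow. This pair was chosen after its values were seen.

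The remaining 2 cytosolic genes of this class that were not called were Wars1, which loads tryptophan, at 25.5 ± 2.2 and 23.9 ± 0.90 FPKM (log2 change -0.09, 95% interval from -0.24 to 0.06), and Tars3. Tars3, a close relative of Tars1, stood at 3.94 ± 0.082 and 4.15 ± 0.83 FPKM, with the widest interval of the cytosolic members (0.05, from -0.29 to 0.40). Reads from Tars1 and Tars3 could be split by the counting, and how reads matching several genes were treated is not stated. In the annotation Tars3 also shares 120 exon bases on the same strand with Tm2d3, which had a log2 fold change of -0.33. The part of this overlap in the values was not tested.

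Of the 8 synthetase genes of the multisynthetase complex 4 were lower and 0 higher. Kars1 is among these 8 and is described below with the enzymes that serve both compartments; the median log2 fold change was -0.09 over all 8 and -0.15 without Kars1. Lars1, the leucyl enzyme and a known leucine sensor for mTORC1, read 30.4, 31.9 and 28.6 FPKM with vehicle and 25.8, 26.8 and 24.5 FPKM with dexamethasone (log2 fold change -0.24, SE 0.058, adjusted p = 0.00821). Mars1, the methionyl enzyme, read 38.9, 37.1 and 38.3 FPKM against 33.7, 32.9 and 31.8 FPKM (log2 change -0.22, SE 0.060, adjusted p = 0.0166). The groups did not overlap in either gene, and Mars1 shares 68 exon bases on the opposite strand with Ddit3, which fell too. Iars1, the isoleucyl enzyme, stood at 29.6 ± 1.3 and 26.2 ± 0.64 FPKM (log2 change -0.18, adjusted p = 0.0186). Eprs1, a single protein that loads both glutamate and proline, stood at 46.3 ± 2.3 and 41.7 ± 1.2 FPKM (-0.15, adjusted p = 0.0323). The call of Mars1 was lost without vehicle replicate 1 or dexamethasone replicate 3, and that of Iars1 without vehicle replicate 1, vehicle replicate 2 or dexamethasone replicate 1. That of Eprs1 was lost without any of vehicle replicates 2 and 3 or dexamethasone replicates 1 and 3, and median-ratio scaling and quantile normalization ended those of Eprs1 and Iars1. Equal sums, no intensity trend and a fit of only the 2 groups compared also ended that of Eprs1.

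Rars1 and Qars1, both in the complex, stayed near their vehicle level. Rars1, the arginyl enzyme, was 42.0 ± 2.7 FPKM with vehicle and 41.6 ± 2.1 FPKM with dexamethasone (log2 change -0.01, 95% interval from -0.14 to 0.12), and Qars1, the glutaminyl enzyme, was 35.6 ± 2.6 and 34.6 ± 0.72 FPKM (-0.04, from -0.17 to 0.09). These intervals reach no lower than -0.17. Those of the uncalled genes outside the complex reach -0.16 (Farsb), -0.24 (Wars1) and -0.29 (Tars3). The 9 called genes outside it had estimates between -0.22 and -0.43, but they were picked by that call. Whether the complex as a class differs from the enzymes outside it was not tested.

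Of the 2 enzymes that serve both compartments 1 was lower. Gars1, the glycyl enzyme, read 76.6, 75.1 and 72.2 FPKM with vehicle and 63.4, 66.5 and 66.0 FPKM with dexamethasone (log2 fold change -0.19, SE 0.046, adjusted p = 0.00697). Kars1, the lysyl enzyme and also a component of the multisynthetase complex, read 64.1, 61.6 and 53.5 FPKM against 66.7, 67.3 and 65.1 FPKM (log2 change 0.16, SE 0.066, adjusted p = 0.0913). Every dexamethasone library was above every vehicle library for Kars1, although vehicle replicate 3 stood well below the other 2. Kars1, singled out after its values were seen, did not pass with values as deposited and was called higher with median-ratio scaling, equal sums, quantile normalization and without vehicle replicate 1.

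In the scaffold of the complex, 1 of 3 genes was higher and 0 were lower. Aimp2, a scaffold protein also known to promote cell death signalling, read 32.6, 31.3 and 26.7 FPKM with vehicle and 37.4, 39.2 and 33.9 FPKM with dexamethasone (log2 fold change 0.29, SE 0.085, adjusted p = 0.0225). That call was lost without vehicle replicate 3, dexamethasone replicate 1 or dexamethasone replicate 2. Aimp1 was 44.8 ± 1.8 and 45.1 ± 1.0 FPKM (log2 change 0.01), and Eef1e1 was 6.76 ± 0.99 and 6.11 ± 0.75 FPKM (-0.14, adjusted p = 0.433).

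Of the 17 mitochondrial genes 0 were called by limma, with 2 at an unadjusted p under 0.05. These 2 were Vars2, the valyl enzyme, at 4.66, 3.82 and 4.07 FPKM with vehicle and 3.63, 3.01 and 3.45 FPKM with dexamethasone (log2 fold change -0.31, adjusted p = 0.065), and Mars2, the methionyl enzyme, at 1.65, 1.92 and 1.58 FPKM and 2.03, 2.52 and 2.10 FPKM (0.35, adjusted p = 0.0701). Neither gene had overlapping groups, and both were called when variances were moderated without an intensity trend. Mars2 was also called higher with median-ratio scaling and quantile normalization. Hars2, the mitochondrial histidyl enzyme, did not pass either, at -0.19 on the log2 scale (adjusted p = 0.138).

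For Cars2, Sars2, Pars2, Aars2, Yars2, Fars2, Rars2, Iars2 and Tars2 the log2 fold changes were between -0.22 and -0.05, and for Lars2, Nars2, Ears2 and Wars2 they were between 0.01 and 0.21. The mitochondrial estimates were less precise than the cytosolic ones, with a median standard error of 0.12 beside 0.058. Of all genes whose mean level lay in the range of the mitochondrial members (1.71 to 20.7 FPKM) 18.8% were called lower, and of those in the range of the cytosolic and dual members (4.10 to 71.7 FPKM) 21.0% were. Fars2 shares 501 exon bases on the opposite strand with Nrn1, singled out after its log2 fold change of 0.87 was seen, and Iars2 shares 2034 with Rab3gap2; the part of such overlaps in the values was not tested.

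Set against its mitochondrial partner for the same amino acid, the cytosolic gene had the lower mean log2 ratio with dexamethasone in 12 of 15 pairs. The difference in log2 ratio between dexamethasone and vehicle had a median of -0.21 and was lowest for Mars1 to Mars2, at -0.58. The larger part of that difference came from Mars2, which was higher (0.35, not called, from 1.72 FPKM), beside -0.22 for Mars1. In 4 pairs the groups stood apart, those of alanine, methionine, asparagine and tyrosine, with every dexamethasone ratio below every vehicle ratio. For levels of single genes, every dexamethasone library lay below every vehicle library in 27.9% of all genes. The share over all possible ratios was not computed. The Mars1 to Mars2 ratio was 22.4 ± 2.7 with vehicle and 14.9 ± 1.8 with dexamethasone, and the Yars1 to Yars2 ratio 2.95 ± 0.23 and 2.46 ± 0.14. An exact permutation test of 1 ratio cannot go below 0.1 here, so no single pair could reach 0.05, and the pairs share libraries and are not replicates.

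**Figure D3:**
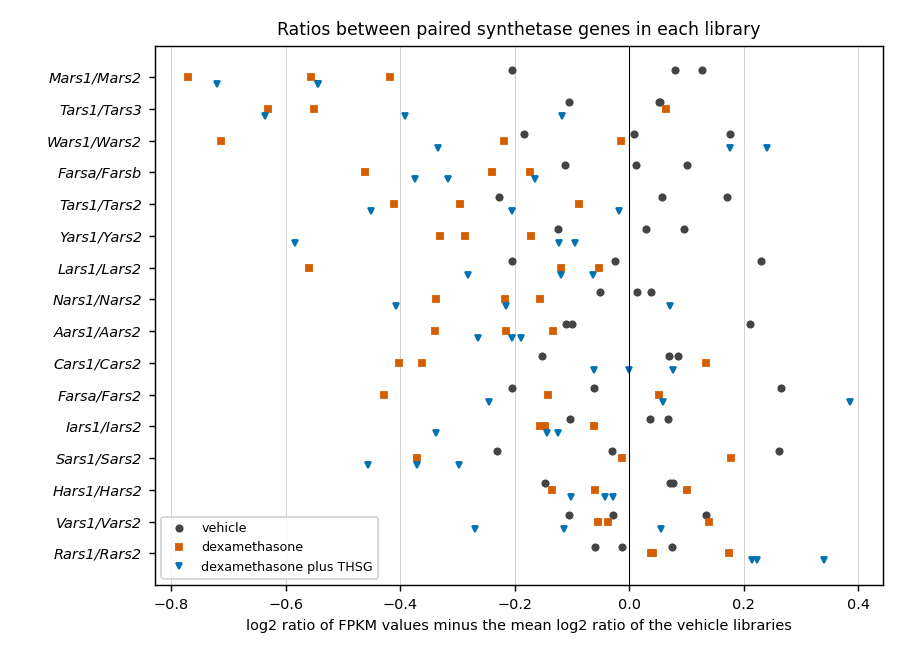
Log2 ratio of each pair of genes in each library, less the mean of the 3 vehicle libraries, for 14 of the cytosolic to mitochondrial pairs and for Farsa to Farsb and Tars1 to Tars3; symbols give the groups. The dexamethasone libraries lie left of all vehicle libraries for Mars1/Mars2, Yars1/Yars2, Nars1/Nars2, Aars1/Aars2 and Farsa/Farsb, and overlap with them in the other pairs.

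Other genes of amino acid supply and tRNA handling were read in the same comparison. Their part in the synthetase falls was not tested. Among 25 measured genes of ATF4 and amino acid stress, 17 were lower and 2 higher with dexamethasone, with a median log2 fold change of -0.48. Of all genes 20.9% were called lower and 12.7% higher. Atf4 itself read 134, 133 and 133 FPKM with vehicle and 97.0, 93.8 and 95.6 FPKM with dexamethasone (log2 fold change -0.48, SE 0.043, adjusted p = 5.3e-06). Ddit3, which encodes the stress factor CHOP, stood at 25.3 ± 1.2 and 19.4 ± 1.4 FPKM (-0.38), and Trib3, a pseudokinase induced by ATF4, had a log2 fold change of -1.86. Asns, which makes asparagine, read 23.1, 25.2 and 24.7 FPKM against 11.4, 14.1 and 11.9 FPKM, a log2 fold change of -0.97. Chac1, a glutathione-degrading enzyme, had one of -1.28. The higher members were Ddit4, an inhibitor of mTORC1 (0.81), and Ppp1r15a, which directs dephosphorylation of eIF2 (0.24), the latter named after its value was seen. The promoter core found in the synthetases was present in 6 of the 24 genes of this list with a promoter sequence, beside 4.51% of all genes. These were Asns, Atf3, Chac1, Nupr1, Pycr1 and Trib3, of which Atf3 was not called (0.10). The list was assembled around ATF4, so this count says nothing about the synthetases. Among amino acid transporters 2 of 13 with a sequence held the core. The synthetase falls were smaller in size than those of Trib3, Asns or Chac1.

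Amino acid transporters split in direction, with 7 of 18 lower and 3 higher, where 20.9% of all genes were called lower and 12.7% higher. Slc7a5, the large neutral amino acid transporter of the plasma membrane, was 37.4 ± 1.5 FPKM with vehicle and 23.7 ± 1.5 FPKM with dexamethasone (log2 fold change -0.66), and Slc1a4, which carries alanine, serine and cysteine, had a log2 fold change of -0.98. Slc43a1, another carrier of large neutral amino acids, went the other way, from 2.06 ± 0.31 to 7.90 ± 0.47 FPKM (1.89), as did Slc43a2 (0.57).

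The machinery that handles tRNA before and after charging was read in 4 short lists. Of all genes 20.9% were called lower and 12.7% higher, and whether these lists differ from that was not tested. In the list of tRNA export and maturation 1 of 20 genes was lower and 0 higher, and the lower one was Xpot, which exports tRNA from the nucleus, at 17.2 ± 0.36 and 14.9 ± 0.18 FPKM (log2 change -0.21, adjusted p = 0.0164). Of 10 genes of trans-editing and tRNA amidation 1 was lower, Qrsl1, a subunit of the mitochondrial amidotransferase that makes glutaminyl-tRNA (-0.38, adjusted p = 0.0178). Of 9 cytosolic elongation and termination factors 1 was lower, Eef1g (-0.20, adjusted p = 0.0104). Of 11 mitochondrial translation factors limma called 0, with 3 at an unadjusted p under 0.05. The medians of these 4 lists were -0.05, -0.10, -0.08 and 0.03, beside -0.05 for all genes. The call of Xpot was lost with median-ratio scaling and without vehicle replicate 3. That of Qrsl1 was lost with quantile normalization and without vehicle replicate 1 or dexamethasone replicate 1.

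**Figure D4:**
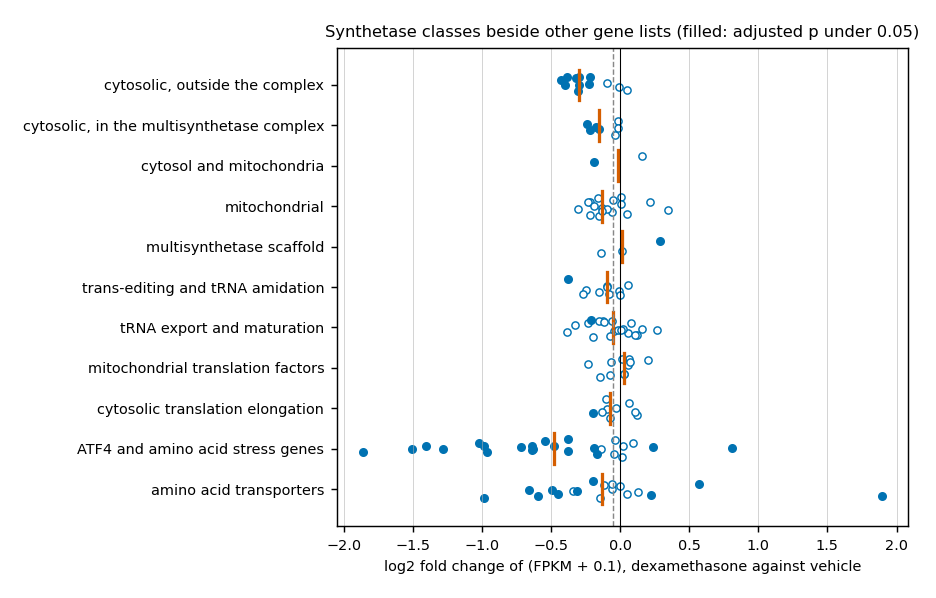
Log2 fold change with dexamethasone for each gene of the 4 synthetase classes and of 7 other lists; filled points have an adjusted p under 0.05, orange bars are list medians, and the dashed line is the median of all genes. The cytosolic genes outside the complex sit together between -0.43 and 0.05, and the ATF4 list reaches from -1.86 to 0.81.

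Adding THSG to dexamethasone tested whether it altered these levels. No synthetase gene was called in either direction by limma, none had an unadjusted p under 0.05, and of all genes 0.0% were called. The 38 log2 fold changes lay between -0.30 (Wars2) and 0.32 (Sars2), with a median of 0.03 beside 0.02 for all genes. For the 21 cytosolic and dual members they lay between -0.05 and 0.09. Of these, 18 were above 0 and 3 below, beside 6020 and 4696 of all 10716 genes. The members share libraries and are not independent. Their 95% intervals reached a median of 0.13 above and below the estimate, and those of the mitochondrial members 0.26. The summed level of the cytosolic and dual members was 743 ± 7.1 FPKM with THSG and 731 ± 11 FPKM without, and that of the mitochondrial members 119.7 ± 4.2 and 120.4 ± 2.5 FPKM.

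The members with the smallest p were Iars2, Sars2, Vars2 and Nars1. Iars2, the mitochondrial isoleucyl enzyme, read 18.8, 18.5 and 19.5 FPKM with dexamethasone and 22.1, 19.8 and 20.1 FPKM with THSG added (log2 fold change 0.12, 95% interval from -0.0017 to 0.25, adjusted p = 0.687). Sars2, the seryl enzyme, read 2.90, 2.32 and 1.96 FPKM against 2.92, 3.24 and 2.79 FPKM (0.32, from -0.03 to 0.68). The libraries did not overlap for Iars2 and overlapped for Sars2. Vars2 read 3.69, 3.74 and 4.25 FPKM with THSG (log2 fold change 0.21, from -0.05 to 0.46) and Nars1 71.5, 68.9 and 70.8 FPKM (0.08, from -0.03 to 0.19). The groups did not overlap for 4 of the 38 members (Aars1, Iars2 and Vars2 higher with THSG, Rars2 lower), where 13.3% of all genes did not.

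For the genes that fell most with dexamethasone the values with THSG stayed near those without. Cars1 was 17.6 ± 0.64 FPKM with both agents and 17.0 ± 0.89 with dexamethasone alone (log2 fold change 0.05, 95% interval from -0.08 to 0.18). Yars1 was 18.4 ± 1.5 and 17.5 ± 0.57 FPKM (0.07, from -0.08 to 0.21), and Aars1 was 27.3 ± 0.38 and 26.1 ± 0.91 FPKM (0.06, from -0.05 to 0.17). The upper ends of these 3 intervals lie below the size of the fall that each gene showed with dexamethasone. The 3 genes were picked for the size of those falls, which may be overstated, and both comparisons share the dexamethasone libraries. Atf4 was 99.3 ± 4.8 FPKM with both agents and 95.5 ± 1.6 with dexamethasone alone (0.06, from -0.04 to 0.15), and Ddit3 was 22.7 ± 1.4 and 19.4 ± 1.4 FPKM (0.22, from 0.07 to 0.37, adjusted p = 0.558).

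Against vehicle, the myotubes given both agents had 12 members lower and 1 higher, where 17.0% of all genes were called lower and 12.1% higher. This comparison shares its vehicle libraries with that of dexamethasone alone, so its values are given beside those and add no independent evidence. Log2 fold changes with both agents and with dexamethasone alone were -0.38 and -0.43 for Cars1, -0.33 and -0.40 for Yars1, -0.32 and -0.38 for Aars1, and -0.30 and -0.32 for Tars1. They were -0.29 and -0.30 for Farsa, -0.27 and -0.30 for Sars1, and -0.21 and -0.30 for Vars1. For Hars1 they were -0.18 and -0.22, and for Nars1 -0.15 and -0.23. With both agents the calls of Vars1, Hars1 and Nars1 were lost with median-ratio scaling, and that of Nars1 also with equal sums, with quantile normalization and without an intensity trend. Leaving out vehicle replicate 2 or replicate 3 with both agents ended all 3 of these calls. Vehicle replicate 1 or replicate 1 with both agents did so for Vars1, replicate 2 with both agents for Hars1, and vehicle replicate 3 or replicate 1 or 2 with both agents for Nars1. Of the 8 complex members, Kars1 included, 1 was lower with both agents, Lars1 (-0.29 and -0.24), and 0 were higher. The dual gene Gars1 was lower as well (-0.24 and -0.19). The calls of Mars1, Iars1 and Eprs1 seen with dexamethasone alone were not made with both agents (log2 fold changes -0.17, -0.13 and -0.13, adjusted p = 0.0574, 0.0716 and 0.0688); the difference between the comparisons is the THSG test above, which called none of them.

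In this comparison 2 mitochondrial genes were called. Mars2 read 2.22, 2.31 and 2.42 FPKM with both agents, above all 3 vehicle libraries (log2 fold change 0.41, adjusted p = 0.0399), and Rars2, the arginyl enzyme, read 8.43, 8.48 and 8.87 FPKM against 9.56, 9.65 and 10.4 FPKM (-0.20, adjusted p = 0.0459). Both calls lie near the threshold. The call of Rars2 was lost under each of the 3 other scalings, with GC and length correction, and on leaving out any 1 of the 9 libraries. That of Mars2 was lost with GC and length correction, without vehicle replicate 1 or 3, and without any 1 of the 3 libraries with both agents.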

How the data were processed

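RNA from 9 libraries of C2C12 myotubes in 3 groups was sequenced, and the series has 1 gene table with 9 columns of values. Reads were aligned with STAR 2.7.10a and counted with featureCounts against GRCm39 (mm39), per the submitters' processing notes; the annotation, the strand setting and the normalization are not given in the sources used here. The deposited values were taken as FPKM from their form: they are fractional although the table is named as counts, all lie above 1, and the libraries have similar sums. Depth is therefore unknown, no count model could be used, and genes below that level were not analysed here. The cell line field of the labels counts up from C2C12 while every title says C2C12, and the titles were followed.

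The test was limma (version 3.58.1, under R 4.3.3) on log2(FPKM + 0.1), with an intensity trend, 1 fit over all 9 libraries and Benjamini-Hochberg adjustment over 10716 genes. Intervals are 95% intervals of that fit, and ratios were compared with exact two-sided permutation tests. The code was tested on simulated data. The members and gene lists were chosen with earlier results of these data known. A few items are not reported here and are left out of the plots by gene, though counts and sums over members include them; all other members are named, and library values were given by rule for called members (up to 12 cytosolic or dual ones and up to 6 mitochondrial ones, by p), for those called against the main direction and for the 4 with the smallest p with THSG, and up to 4 genes per other list were named by p. Alternatives covered the pseudocount (0 and 1), scaling, a minimum mean of 5 FPKM, the variance trend, the groups fitted, the replicate number, GC content and length, and each library left out. Promoters came from RefSeq (GRCm38.p6), and exon overlaps from the GENCODE annotation of GRCm38, which is not the build of the alignment.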

Additional observations from a re-analysis of the deposited data

How the results depend on the processing

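Of the 14 members called lower with dexamethasone, 11 were called under every setting run (Aars1, Cars1, Farsa, Gars1, Hars1, Lars1, Nars1, Sars1, Tars1, Vars1 and Yars1), and the count ranged from 12 to 14, also when 1 library was left out. The count called higher, 0 as reported, was 2 with median-ratio scaling, 2 with quantile normalization, 1 with equal sums, 1 without an intensity trend and 0 to 1 when 1 library was left out. With both agents against vehicle, 8 of 13 calls held under every setting, the count lower ranged from 8 to 13 (8 with median-ratio scaling), and the count higher, 1 as reported, was 2 with median-ratio scaling, equal sums or quantile normalization, 0 with a minimum mean of 5 FPKM, 0 with the replicate block and GC and length correction, and 0 to 1 when 1 library was left out. With a minimum mean of 5 FPKM, Mars2 was not among the genes tested; for the other changes the cause was not tested. No called member changed direction, and no member was called for THSG against dexamethasone under any setting. Over all genes, 2239 were lower and 1362 higher with dexamethasone as reported, beside 1766 and 1739 with median-ratio scaling and 1751 and 1784 with quantile normalization. The median log2 fold change of all genes was -0.05 as deposited and -0.0029 with median-ratio scaling. Libraries with the same replicate number did not deviate together (correlations from -0.086 to 0.11 over 9 pairs), so no shared effect of the number was seen. The labels do not say whether the numbers pair the samples, and the main fit was unpaired. With the replicate block 14 members were lower and 0 higher with dexamethasone, and 13 lower and 1 higher with both agents. Mitochondrial members had wider intervals than cytosolic ones, and the unknown depth allows no counting error to be given.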

Other observations

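The cytosolic and dual members were also grouped by catalytic class, a grouping added after the data were seen. Class I enzymes, which share a Rossmann fold, were called lower with dexamethasone in 6 of 9 cases, with a median log2 fold change of -0.22. Class II enzymes, built on an antiparallel sheet, were called lower in 7 of 11 cases, with a median of -0.22. Of all genes 20.9% were called lower, with a median of -0.05. Eprs1 carries both folds and was left out. The ratio of Tars1 to Tars3 was 8.62 ± 0.53 with vehicle and 6.81 ± 1.9 with dexamethasone, and the libraries overlapped (exact permutation p = 0.4, n = 3 per group).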
